A study of Mus musculus with 4 samples.

Results

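The 9 genes that follow limb muscle from its migrating precursors to the first muscle fibres were examined in mouse forelimb buds at E11.5, with and without conditional knockout of Smarcc1. They are Pax3, Pax7, Lbx1 and Msc, of muscle progenitors, Myf5, Myod1 and Myog, the myogenic regulatory factors, and Chrna1 and Actc1, of muscle fibres. The genes were named by symbol, and each of the 9 matched 1 Ensembl gene among 35689 genes in the table. Of the 9, 8 had 1 TPM or more in 2 or more libraries and were tested, among 12809 tested genes in all. Pax7 did not reach that level, and Chrna1 reached it only in the knockout libraries. TPM is a transcript abundance corrected for the length of the transcript and for the size of the library, so levels of different genes can be compared within a library.

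Each of the 4 libraries came from the forelimb pair of 1 embryo. The knockout embryos were PrxCre/+;Smarcc1c/c and the controls Prx+/+;Smarcc1c/c, so that both genotypes were homozygous for the conditional allele and only the knockouts carried Cre. In both genotypes replicate 1 had 40 somites and replicate 2 had 39, and values below follow that order within a genotype. PrxCre is a transgene known for activity in limb bud mesenchyme, and the whole forelimb pair also holds cells outside that domain. Smarcc1, which encodes the BAF155 subunit of the BAF chromatin remodelling complex, stood at 46.2 and 38.4 TPM in knockout buds and 112 and 119.6 TPM in control buds. The starting RNA was 310 and 330 ng in the knockouts and 340 and 580 ng in the controls. Ddx3y, on the Y chromosome, was read at 0.0498 and 28.3 TPM in knockout buds and 0.013 and 30.2 TPM in control buds, so sex coincided with somite number in both genotypes. Somite stage and sex can therefore not be told apart here.

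The muscle of the limb does not arise in the limb mesenchyme. Its precursors detach from the edge of the neighbouring somites under the control of Pax3 and of HGF signalling through the receptor Met, and Lbx1 guides their migration into the bud. There they enter the muscle programme through Myf5 and Myod1, and Myog then drives their differentiation into fibres. These cells lie outside the mesenchyme in which PrxCre is known to act.

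Promoter sequences of 3 genes are given because they mark the late steps of this sequence. Of these, Myog and Actc1 were highest in the 40-somite knockout and Chrna1 in the 39-somite knockout. Windows of 300 bases, from 250 before to 50 after the gene start, were taken from RefSeq (build GRCm38.p6, the assembly of mm10), where 5 of the 9 genes matched (Pax7, Myf5, Myog, Chrna1 and Actc1). The window of Myog lies at chr1:134289754-134290053 on the plus strand, that of Chrna1 at chr2:73580289-73580588 and that of Actc1 at chr2:114052826-114053125 on the minus strand. The start of Actc1 in RefSeq lies inside the longer gene span of GENCODE. Capitals mark the E-box CANNTG, to which the myogenic regulatory factors bind, the MEF2-type motif CTANNNNTA on either strand, and the CArG box of serum response factor.
Myog: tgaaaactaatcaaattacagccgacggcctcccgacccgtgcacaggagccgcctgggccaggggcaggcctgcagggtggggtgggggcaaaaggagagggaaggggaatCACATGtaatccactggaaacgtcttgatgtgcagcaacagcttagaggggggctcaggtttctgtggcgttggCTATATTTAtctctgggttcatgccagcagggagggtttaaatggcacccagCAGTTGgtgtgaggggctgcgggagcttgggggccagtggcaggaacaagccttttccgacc
Chrna1: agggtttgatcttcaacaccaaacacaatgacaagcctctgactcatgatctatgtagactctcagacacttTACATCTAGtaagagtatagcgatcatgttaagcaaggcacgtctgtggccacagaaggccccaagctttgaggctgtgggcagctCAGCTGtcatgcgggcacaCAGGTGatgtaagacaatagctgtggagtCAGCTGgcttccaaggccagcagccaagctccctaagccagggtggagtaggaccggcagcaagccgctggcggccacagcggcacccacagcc
Actc1: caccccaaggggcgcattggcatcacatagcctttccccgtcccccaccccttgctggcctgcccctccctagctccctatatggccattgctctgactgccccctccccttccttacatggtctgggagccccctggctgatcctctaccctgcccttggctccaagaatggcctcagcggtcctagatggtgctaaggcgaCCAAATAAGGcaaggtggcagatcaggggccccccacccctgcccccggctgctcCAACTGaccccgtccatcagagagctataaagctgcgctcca

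The Chrna1 window held 3 E-boxes, 2 of them with the letters CAGCTG at positions -92 and -44 from the gene start, and 1 MEF2-type match at -178. The Myog window held 2 E-boxes, at -138 and -12, and 1 MEF2-type match at -64. The Actc1 window held 1 E-box at 9 bases into the gene and 1 CArG box at -47. Both Chrna1 and Myog, but not Actc1, thus held a match to this pattern, in which each N may be any letter. At these places the Myog match CTATATTTA held A or T alone, and the Chrna1 match TACATCTAG did not. Of 32817 promoter windows, 72.3% held at least 1 E-box, 17.6% held at least 3, 16.3% held the CAGCTG form, which is itself an E-box, 21.0% held the MEF2-type motif and 1.63% held a CArG box. The windows of Pax7 and Myf5 held no E-box. Such a match describes letters and does not show binding.

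In the controls the 9 genes were low to moderate in level. Myf5 was highest at 7.94 ± 1.63 TPM (mean ± SD, n = 2), followed by Lbx1 at 5.26 ± 0.80 TPM, and their control ranges did not overlap. Myog, Pax3, Actc1 and Myod1 followed with means between 2.60 and 3.59 TPM, and the control ranges of neighbours in that order overlapped. Msc at 1.53 ± 0.22 TPM, Chrna1 at 0.79 ± 0.08 TPM and Pax7 at 0.0387 ± 0.0139 TPM were the lowest and stood apart from one another. In the knockouts the summed TPM of the 9 genes was 44.4 and 42.0, against 32.4 and 24.1 in the controls, and the groups did not overlap. The sum was not tested, and for single genes both knockouts lay above both controls in 22.7% of all tested genes. The 2 knockout sums drew on different genes, with Actc1 at 8.61 and 1.32 TPM and Lbx1 at 6.33 and 11.6 TPM. In whole forelimb buds, more cells of a type and more RNA per cell cannot be told apart, and TPM does not record how many reads lay behind these low values.

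**Figure D1:**
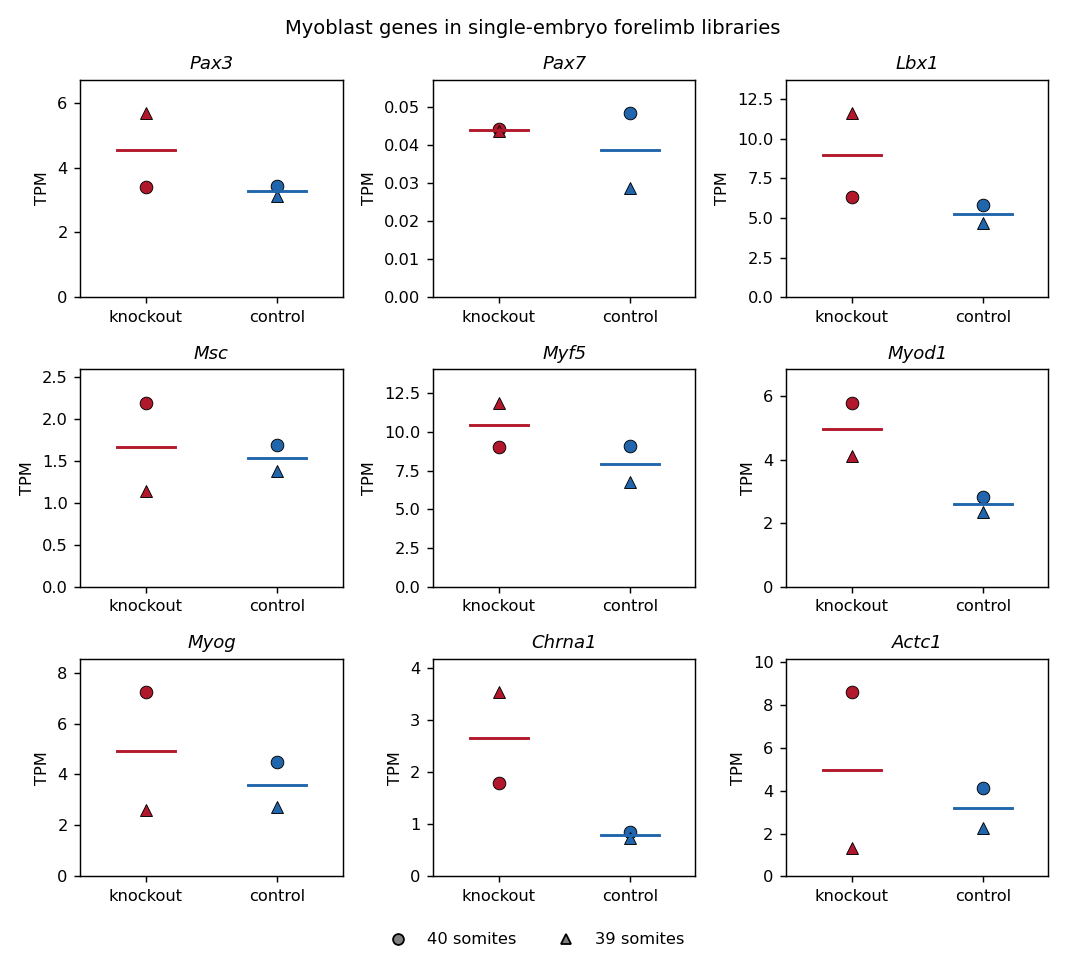
TPM of each of the 9 myoblast genes (vertical axes, linear, from 0, with a scale for each gene) in the knockout libraries (red, left) and the control libraries (blue, right); circles are 40-somite and triangles 39-somite embryos, and bars are means of 2 libraries. Lbx1, Myod1 and Chrna1 were higher in both knockouts than in both controls, which for Chrna1 follows from its entry into the test through its knockout level alone. Myog and Actc1 spanned the widest ranges within the knockouts relative to their means.

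None of the 8 tested genes passed the test between genotypes. By limma with Benjamini-Hochberg adjustment over all tested genes, 0 of 8 were higher and 0 lower at 0.05, where 1.30% of all tested genes passed. With somite stage in the model 0 of 8 passed as well, where 4.16% of all tested genes did. With knockout replicate 1 left out 3 of 8 passed and with knockout replicate 2 left out 3 of 8, where 5.04% and 3.91% of all tested genes did, and only Actc1 was among the 3 both times. Without adjustment, p was under 0.05 for 2 of the 8, both higher (Myod1 and Chrna1), where 6.78% of tested genes were higher and 6.89% lower. In 3 of the 8 (Lbx1, Myod1 and Chrna1) both knockouts lay above both controls, which was so for 22.7% of tested genes. The median log2 fold change of the 8 was 0.35, beside 0.01 over all tested genes. Chrna1 is among these counts and this median. It entered the test through its knockout level alone, so its place above both controls was fixed in advance. Fold changes are knockout minus control on the log2(TPM + 1) scale, which understates changes of genes at such low TPM.

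The progenitor genes came first in the order of development. Lbx1 (ENSMUSG00000025216, chromosome 19 from 45232684 to 45235812 on the minus strand of mm10), the homeobox gene of migrating limb muscle precursors, stood at 6.33 and 11.6 TPM in knockout buds and 5.83 and 4.69 TPM in control buds. Both knockouts lay above both controls, but the 40-somite knockout lay nearer the 40-somite control than the other knockout. Its log2 fold change was 0.63 ± 0.27 (SE, n = 2 each; limma, adjusted p = 0.392). Without knockout replicate 1 it was 1.02, and without knockout replicate 2 it was 0.23.

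Pax3 (ENSMUSG00000004872, chromosome 1 from 78101267 to 78197134), the paired-box gene required for limb muscle precursors to detach and migrate, stood at 3.42 and 5.69 TPM in knockout buds and 3.44 and 3.13 TPM in control buds. The 39-somite knockout was alone above the other 3 libraries, which lay close together. Its log2 fold change was 0.34 ± 0.22 (SE, n = 2 each; limma adjusted p = 0.587). Pax7 (ENSMUSG00000028736, chromosome 4 from 139737062 to 139833528), its paralog of later muscle progenitors, stood at 0.0443 and 0.0437 TPM in knockout buds and 0.0485 and 0.0288 TPM in control buds. Levels this near 0 in every library give no fold. Msc (ENSMUSG00000025930, chromosome 1 from 14753346 to 14755992), which encodes the bHLH repressor musculin, stood at 2.19 and 1.15 TPM in knockout buds and 1.69 and 1.38 TPM in control buds. The 2 knockouts enclosed the controls, and the log2 fold change was 0.05 ± 0.23 (SE, n = 2 each; limma adjusted p = 0.959). An antisense gene overlaps Msc in GENCODE, and whether the reads were assigned by strand is not given in the sources used here.

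Of the regulatory factors, Myf5 (ENSMUSG00000000435, chromosome 10 from 107482908 to 107486134), the first to act in limb muscle precursors, stood at 8.999 and 11.9 TPM in knockout buds and 9.10 and 6.79 TPM in control buds. The groups overlapped, and the log2 fold change was 0.36 ± 0.20 (SE, n = 2 each; limma adjusted p = 0.511). Myod1 (ENSMUSG00000009471, chromosome 7 from 46376474 to 46379099), which commits cells to muscle, stood at 5.803 and 4.13 TPM in knockout buds and 2.84 and 2.35 TPM in control buds. Both knockouts lay above both controls at a mean 1.91 times the control mean, with a log2 fold change of 0.72 ± 0.19 and a 95% interval of 0.25 to 1.19. It did not pass (limma adjusted p = 0.182, and 0.0587 with somite stage in the model). Without knockout replicate 2 it did (0.92, limma adjusted p = 0.0158).

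Myog (ENSMUSG00000026459, chromosome 1 from 134289989 to 134292548), the factor of terminal differentiation, stood at 7.23 and 2.62 TPM in knockout buds and 4.48 and 2.71 TPM in control buds. The 40-somite knockout was the highest of the 4 libraries and the 39-somite knockout the lowest. Its log2 fold change was 0.28 ± 0.40 (SE, n = 2 each; limma adjusted p = 0.841), with a 95% interval from -0.70 to 1.25. Without knockout replicate 2 the fold was 0.87, and without knockout replicate 1 it was -0.32.

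The 2 fibre genes went different ways across the knockouts. Chrna1 (ENSMUSG00000027107, chromosome 2 from 73563215 to 73580338), the alpha subunit of the muscle acetylcholine receptor, stood at 1.79 and 3.53 TPM in knockout buds and 0.851 and 0.733 TPM in control buds. Both knockouts lay above both controls, at a mean 3.36 times the control mean, the largest ratio of means among the 8 tested genes. The log2 fold change was 0.99 ± 0.26 (SE, n = 2 each; limma adjusted p = 0.169). Since the gene entered the test through its knockout level alone, its place above both controls and its p-values are no support for a difference. With knockout replicate 1 left out its fold was 1.34, with knockout replicate 2 left out it was 0.64, and it ran from 0.39 at a pseudocount of 5 to 1.56 at a pseudocount of 0.1.

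Actc1 (ENSMUSG00000068614, chromosome 2 from 114047282 to 114053548), the cardiac alpha-actin gene that early skeletal muscle also uses, stood at 8.61 and 1.32 TPM in knockout buds and 4.12 and 2.26 TPM in control buds. The knockouts held both the highest and the lowest library, 6.55-fold apart. The log2 fold change was 0.21 ± 0.63 (SE, n = 2 each; limma adjusted p = 0.932). With knockout replicate 2 left out the fold change of Actc1 was 1.23, and with knockout replicate 1 left out it was -0.82. A noncoding gene on the opposite strand overlaps Actc1. The markers of heart muscle lay near 0: none of 6 reached a TPM of 1, Nkx2-5 and Nppa were listed at 0 in every library, and the highest value of any was 0.363 TPM.

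**Figure D2:**
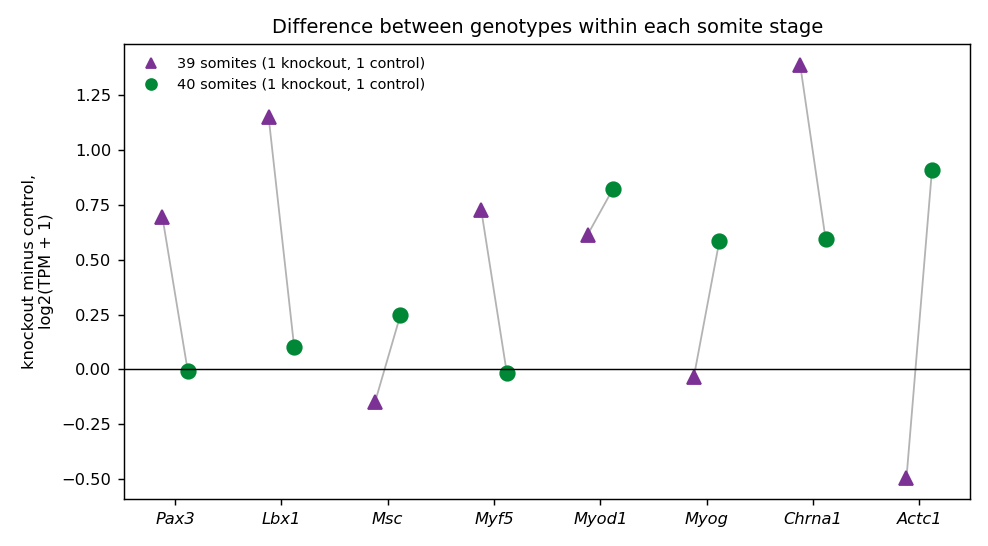
Difference between knockout and control in log2(TPM + 1) for the 8 tested myoblast genes (vertical axis), within the 39-somite libraries (triangles) and the 40-somite libraries (circles), each difference being 1 knockout minus 1 control library; the horizontal line is 0. Lbx1, Pax3, Myf5 and Chrna1 differed more at 39 somites, Actc1, Myog and Msc were below 0 at 39 and above it at 40 somites, and Myod1 was above 0 at both, by 0.61 and 0.82.

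Within a stage, the genes differed in where the knockout exceeded the control, in a division that did not follow their roles. At 39 somites the knockout exceeded the control by 1.15 for Lbx1, 0.70 for Pax3 and 0.73 for Myf5 on the log2(TPM + 1) scale, while Msc differed by -0.15, Myog by -0.03 and Actc1 by -0.50. At 40 somites the order turned round. There Lbx1 differed by 0.10, Pax3 by -0.01 and Myf5 by -0.01, and Msc by 0.25, Myog by 0.59 and Actc1 by 0.91. Thus the progenitor gene Msc differed in sign between stages as the late genes Myog and Actc1 did. Myod1 and Chrna1 were above the control at both stages, by 0.61 and 1.39 at 39 somites and 0.82 and 0.59 at 40 somites. For Chrna1 that direction was fixed by its entry into the test through its knockout level alone. The fibre gene Chrna1 had the larger difference at 39 somites, as Lbx1 did. In 5 of the 8 tested genes the stages differed in sign, where 30.8% of all tested genes did. With 1 library for each genotype and stage, no test of this difference could be made.

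Levels were also set relative to Lbx1 in the same library, a scale chosen after the values were seen. Actc1 stood at 1.36 and 0.113 times the Lbx1 level in the knockouts and 0.706 and 0.482 times in the controls. Myog stood at 1.14 and 0.225 times in the knockouts and 0.769 and 0.577 times in the controls. Myod1 stood at 0.916 and 0.355 times in the knockouts and 0.488 and 0.501 times in the controls, and Msc, a progenitor gene, at 0.346 and 0.0984 times in the knockouts and 0.290 and 0.294 times in the controls. In all 4 ratios the knockouts lay outside the range of the controls on either side. Lbx1 itself stood at 6.33 and 11.6 TPM in the knockouts, so division by it lowers every ratio of the 39-somite knockout. The split is thus partly built in, and the level of Myod1 itself lay above both controls in both knockouts. Chrna1 stood at 0.283 and 0.303 times the Lbx1 level in the knockouts and 0.146 and 0.156 times in the controls. Its 2 knockout ratios lay close together and above both controls, and both Chrna1 and Lbx1 were higher in the 39-somite than in the 40-somite knockout. Myf5 stood at 1.42 and 1.02 times in the knockouts and 1.56 and 1.45 times in the controls. Pax3 held 0.540 and 0.489 times the Lbx1 level in the knockouts and 0.591 and 0.667 times in the controls. As a single balance, the mean log2(TPM + 1) of the 5 regulatory factor and fibre genes minus that of the 4 progenitor genes was 1.09 and 0.37 in the knockouts and 0.59 and 0.36 in the controls. The genotype means of this balance differed by 0.25, less than the SD of 0.51 between the knockouts.

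The 2 knockout libraries differed from each other more in these genes than in most. Ranked by the size of the difference between the 40-somite and 39-somite knockout, Actc1 was 57th and Myog 106th among 12809 tested genes. Lbx1, Chrna1, Pax3 and Msc lay between the 283rd and the 561st, Myod1 was 1182nd and Myf5 1503rd. The ranking was not matched for level, and these genes were low to moderate in level. In the same ranking of the 2 controls, Actc1 was 437th and Myog 647th, while Pax3 and Chrna1 ranked 8998th and 9382nd. All 8 tested genes were higher in the 40-somite than in the 39-somite control, where 28.6% of all tested genes were. In the knockouts 4 of the 8 were higher at 40 somites (Msc, Myod1, Myog and Actc1), where 33.3% of all tested genes were. For Pax7, which was not tested, both differences lay close to 0.

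**Figure D3:**
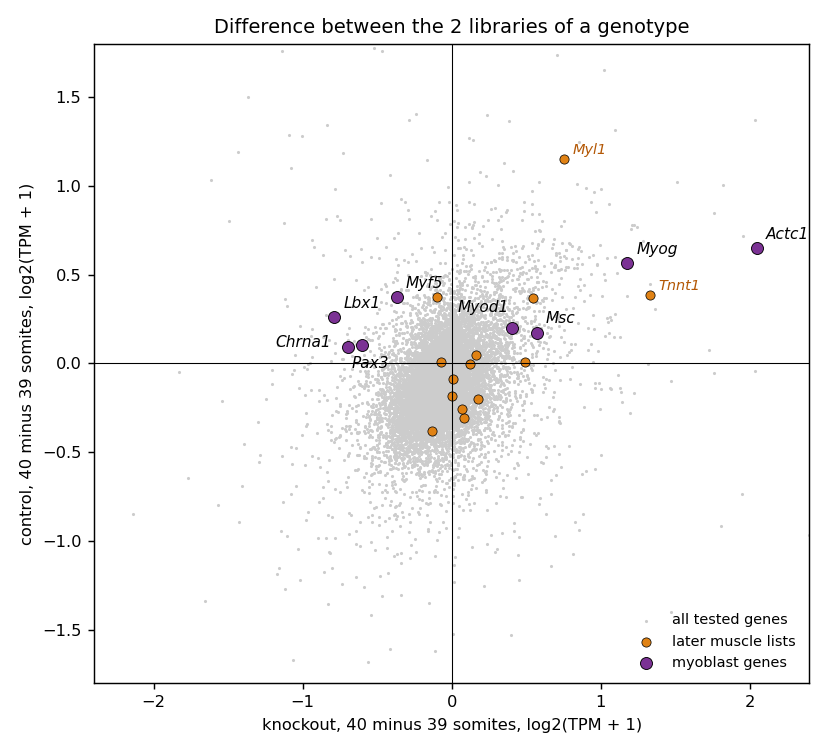
Difference between the 40-somite and 39-somite library in log2(TPM + 1), within the knockouts (horizontal axis) and within the controls (vertical axis), for the 8 tested myoblast genes (purple), the 14 tested genes of later muscle lists (orange) and all tested genes (grey, 68 of which lie outside the axes). Actc1 and Myog lie far to the right, and Lbx1, Chrna1, Pax3 and Myf5 lie left of 0 and above it.

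Genes of later muscle, from the regulators of fusion to the sarcomere, were mostly under 1 TPM. The lists held 15 genes of differentiation and fusion, 24 of the sarcomere and cytoskeleton and 6 of the neuromuscular receptor, 45 in all, of which 14 were tested and 25 stayed under a TPM of 1 in every library. By limma over all tested genes, 0 of the 14 were higher and 0 lower, where 1.30% of all tested genes passed. Without adjustment p was under 0.05 for 2, both lower (Srl and Myl6b), where 6.78% of all tested genes were higher and 6.89% lower. The median log2 fold change of the 14 was 0.0139, beside 0.00838 over all tested genes. Srl, which encodes the calcium-binding protein sarcalumenin, stood at 23.0 and 24.2 TPM in knockout buds and 30.5 and 30.4 TPM in control buds (-0.36 ± 0.11, SE, n = 2 each; limma adjusted p = 0.232). Myl6b, a myosin light chain gene, stood at 2.54 and 2.53 TPM in knockout buds and 4.29 and 4.998 TPM in control buds (-0.67 ± 0.15; limma adjusted p = 0.127). For both genes the 2 knockouts lay close together below both controls.

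Among the others with the smallest p-values of their lists, Rbm24, an RNA-binding regulator of muscle splicing, stood at 3.01 and 2.57 TPM in knockout buds and 1.98 and 1.88 TPM in control buds. Mef2d, a MADS-box factor that acts with the regulatory factors, had a log2 fold change of 0.32 and Fndc5 one of -0.24. Tpm2 and Mylpf, genes of tropomyosin and a fast myosin light chain, had log2 fold changes of -0.11 and -0.04. Chrnb1, the receptor's beta subunit gene, stood at 3.73 and 2.24 TPM in knockout buds and 2.74 and 1.902 TPM in control buds. None of these passed.

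Tnnt1, slow skeletal troponin T, stood at 13.2 and 4.63 TPM in knockout buds and 7.87 and 5.802 TPM in control buds. It thus had the knockouts on either side of the controls, as Actc1 and Myog did (0.20 ± 0.42, SE, n = 2 each; limma adjusted p = 0.899), and passed only without knockout replicate 2 (0.87, limma adjusted p = 0.0175). Chrng, the fetal gamma subunit of the acetylcholine receptor, was named after its values were seen and was not tested. It stood at 1.51 and 0.435 TPM in knockout buds and 0.227 and 0.115 TPM in control buds, above both controls in both knockouts but highest at 40 somites, unlike Chrna1. Of the 45 genes, 33 were higher in the 40-somite than in the 39-somite knockout and 27 in the 40-somite than in the 39-somite control. Among the 14 tested the counts were 11 and 7, where 33.3% and 28.6% of all tested genes were higher.

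Of 10 reported genes of detachment and migration, 9 were tested, and 0 rose, 0 fell and 9 did not pass by limma, where 0.812% of all tested genes rose. Without adjustment 4 of the 9 had p under 0.05, all of them higher, where 6.78% of all tested genes were. The median log2 fold change of the 9 was 0.36, beside 0.01 over all tested genes. In 6 of the 9 both knockouts lay above both controls, where 22.7% of all tested genes did.

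The 4 genes with the smallest p were Eya2, Meox2, Hgf and Cxcr4. Eya2, which encodes a transcriptional coactivator, stood at 12.4 and 19.3 TPM in knockout buds and 6.52 and 7.22 TPM in control buds (1.07 ± 0.22, SE, n = 2 each; limma adjusted p = 0.0972, and 0.0335 with somite stage in the model). Meox2, a homeobox gene required for limb muscle, stood at 113 and 126 TPM in knockout buds and 74.5 and 64.0 TPM in control buds (0.78 ± 0.12; limma adjusted p = 0.0519, and 0.0352 with somite stage in the model). Hgf, the ligand that releases and guides the precursors and is made by limb mesenchyme, stood at 17.7 and 24.5 TPM in knockout buds and 12.9 and 9.19 TPM in control buds (0.87 ± 0.21; limma adjusted p = 0.153). In all 4 both knockouts lay above both controls, and the 39-somite knockout was the highest library. It was also the highest for Lbx1, Pax3, Myf5 and Chrna1. The 40-somite knockout lay above the 39-somite knockout in 33.3% of all tested genes.

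Met and Cxcl12 were named after their values were seen. Met, the HGF receptor of the precursors, stood at 9.66 and 8.33 TPM in knockout buds and 9.91 and 7.37 TPM in control buds, and the groups overlapped. Its log2 fold change was 0.06 ± 0.18 (SE, n = 2 each) with a 95% interval from -0.37 to 0.49 (limma adjusted p = 0.929). Cxcr4, a chemokine receptor of migrating precursors, stood at 14.95 and 17.0 TPM in knockout buds and 11.0 and 13.4 TPM in control buds (limma adjusted p = 0.363). Its ligand gene Cxcl12 stood at 22.5 and 15.4 TPM in knockout buds and 13.5 and 21.3 TPM in control buds, with groups that overlapped.

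**Figure D4:**
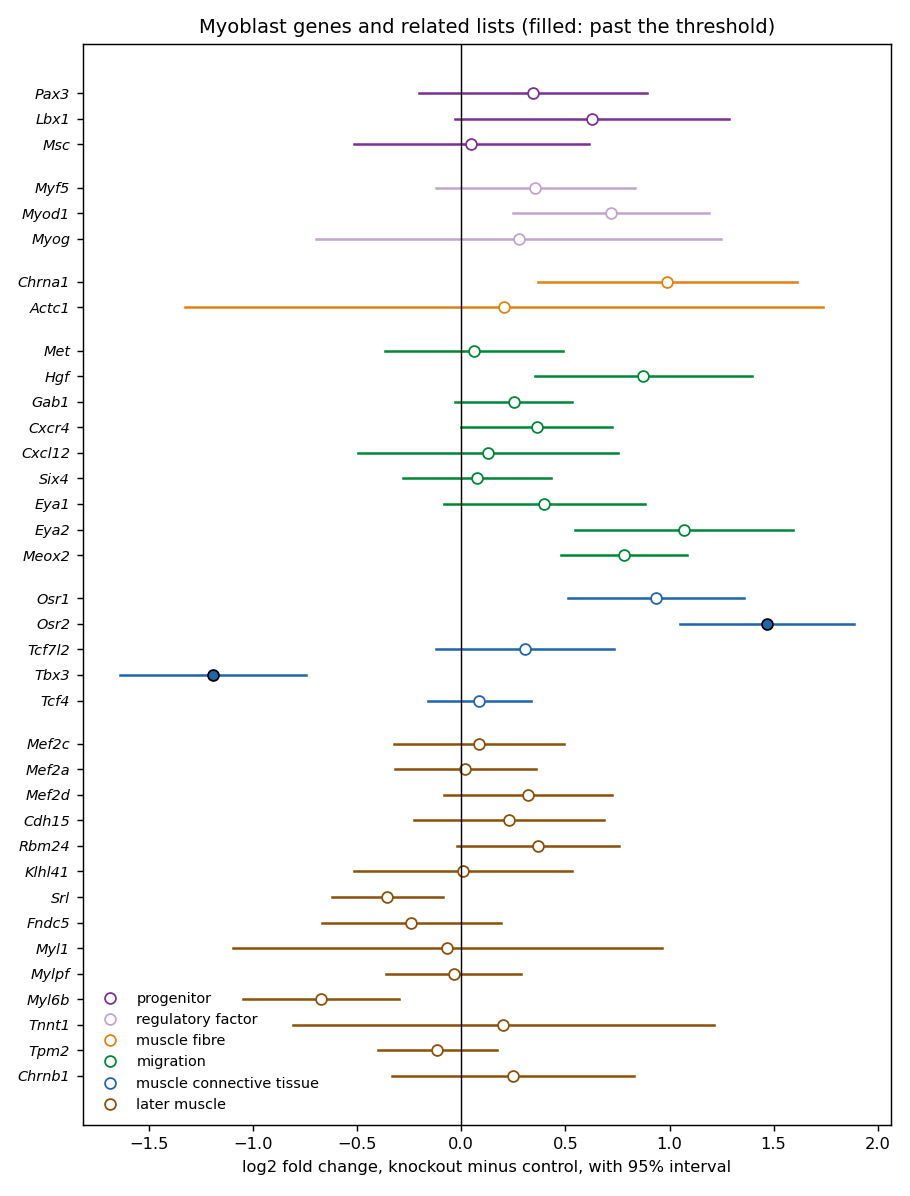
Log2 fold change, knockout minus control, with its 95% interval from limma (horizontal axis) for the tested myoblast genes and the tested genes of the migration, muscle connective tissue and later muscle lists (rows, colours by list); filled points passed at an adjusted p of 0.05. Osr2 and Tbx3 passed, none of the myoblast genes did, and the interval of Actc1 was the widest shown.

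The tissue held markers of other cells beside these genes. All 8 limb mesenchyme markers were tested, and 1 rose (Pdgfra, a growth factor receptor gene) and 1 fell (Msx1, a homeobox gene) by limma, where 1.30% of all tested genes passed in either direction and 0.812% rose, with summed levels of 742 and 833 TPM in knockout buds and 768 and 909 TPM in control buds. Among 5 genes of the muscle connective tissue, the mesenchymal cells that surround and pattern muscle, 1 rose and 1 fell, beside the same shares. Osr2 rose to 71.0 and 98.3 TPM in knockout buds, against 28.1 and 31.1 TPM in control buds (1.47 ± 0.17, SE, n = 2 each; limma adjusted p = 0.0228), and Tbx3 fell by 1.19 on the log2 scale (0.0465). The call for Osr2 ended without control replicate 1 or 2 (limma adjusted p = 0.0781 and 0.0652), and so did that for Tbx3 (0.138 and 0.0848). The calls for Pdgfra ended in the same fits (0.0597 and 0.0524). That for Tbx3 ended also under median-ratio scaling (limma adjusted p = 0.0746) and without the variance trend (0.0510), and with no filter on low values 0 genes of the whole table passed. The summed level of the connective tissue list was 202 and 246 TPM in knockout buds and 160 and 161 TPM in control buds. This sum includes Tcf4, which encodes the E protein E2-2 and is not the connective tissue marker known as TCF4, whose gene is Tcf7l2. Without it the sum was 112 and 149.7 TPM in knockout buds and 72.9 and 72.5 TPM in control buds. Most of that sum in the knockouts was Osr2, and the genes of the list did not move together. Osr1 and Osr2 lay above both controls in both knockouts, Tbx3 lay below both controls, and the groups of Tcf7l2 overlapped. The part of connective tissue in the levels of the myoblast genes was not tested.

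Pax3, Pax7 and Lbx1 are also expressed in the neural tube or neural crest, and Pax3 in somites. All 7 neural tube markers stayed under a TPM of 1 in every library, with Olig2, Neurog1 and Dbx1 listed at 0 throughout and summed levels of 0.995 and 0.342 TPM in knockout buds and 0.0418 and 0.127 TPM in control buds. Of 4 reported neural crest and glial markers, Erbb3 was tested and did not pass, Sox10 was at most 0.217 TPM, and the sums were 6.57 and 4.06 TPM in knockout buds and 8.10 and 5.96 TPM in control buds. The 5 somite markers summed to 7.81 and 13.3 TPM in knockout buds and 9.77 and 10.2 TPM in control buds, and 0 of 3 tested passed. They did not share a pattern. Tcf15 was highest in the 39-somite knockout (3.14 and 7.07 TPM in knockout buds, 4.67 and 4.68 TPM in control buds), and so was Meox1 (3.47 and 4.86 TPM in knockout buds, 3.78 and 3.38 TPM in control buds), the library in which Pax3 and Lbx1 were also highest. Pax9 was lowest in that library (0.853 and 0.684 TPM in knockout buds, 1.08 and 1.21 TPM in control buds). Pax1 was highest in the 39-somite control (0 and 0.318 TPM in knockout buds, 0.202 and 0.903 TPM in control buds). Uncx, which was not tested, stayed near 0 but was also highest in the 39-somite knockout. It stood at 0.354 and 0.411 TPM in knockout buds and 0.0356 and 0 TPM in control buds, so both knockouts lay above both controls. The part of somite tissue in the levels of Pax3 and Lbx1 was not tested. Over all tested genes, 33.3% were higher in the 40-somite than in the 39-somite knockout.

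The genes most like Pax3 and Myog over the 4 libraries were found by the distance between their centred log2(TPM + 1) values, among 12126 tested protein-coding genes outside the lists. For Pax3 the nearest were Gm20695, Rnf213 and Irx5, at distances of 0.02, 0.10 and 0.11. For Myog they were Gm21060, Penk and Gjb6, at 0.07, 0.15 and 0.17. With 4 libraries such likeness is a description of these embryos.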

How the data were processed

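RNA of 4 forelimb pairs was measured, 2 per genotype. The authors deposited TPM values for 35727 Ensembl genes in 4 columns, whose sums are 1000000 each. Salmon 1.9.0 and mm10 are named in the submitters' processing notes, and no source used here gives the transcript set or settings. TPM keeps no depth, so no count test or counting interval is given. Identifiers were matched to symbols (35422, or 99.1%) and values of repeated symbols summed, leaving 35689 genes. Positions come from GENCODE M21 (mm10) and are counted from 1. The test took the 12809 genes that had 1 TPM or more in 2 or more libraries. It was limma 3.58.1 (R 4.3.3; eBayes with a variance trend) on log2(TPM + 1), without covariates, with Benjamini-Hochberg adjustment over all of them at 0.05. The fit was tested on simulated data before use. With 2 libraries against 2, the smallest two-sided p of an exact permutation test is 0.333. The labels do not number replicates, so they were numbered in the order in which the samples are listed. The p-values rest on the spread between single embryos, which within a genotype also differ in somite stage and sex. Genes named are the 9 myoblast genes, Smarcc1, the genes past the threshold in each further list (or up to 4 with the smallest p), and the 3 genes most like Pax3 and Myog; others are stated. The myoblast genes and lists were chosen with earlier results of these data known, and 2 genes of the lists are not reported here. The alternatives used a pseudocount of 0.1 or 5, all genes whatever their level, a minimum of 5 TPM, scaling by median ratios, a block for somite stage, a fit that leaves out the variance trend, and each library left out.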

Additional observations from a re-analysis of the deposited data

Results flagged for a closer look

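In 5 genes the difference between knockout and control lay on opposite sides of 0 at the 2 somite stages, with 1 library for each genotype and stage. Actc1 was 0.91 higher at 40 somites and differed by -0.496 at 39 somites on the log2(TPM + 1) scale. Myog differed by 0.586 at 40 somites and -0.0336 at 39 somites. Msc differed by 0.249 at 40 somites and -0.15 at 39 somites. Pax3 differed by -0.00914 at 40 somites and 0.697 at 39 somites. Myf5 differed by -0.0143 at 40 somites and 0.727 at 39 somites. These differences between stages were not tested. For Myog, Pax3 and Myf5 the smaller of the pair lay close to 0, and opposite signs were found in 30.8% of all tested genes.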

How the results depend on the processing

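The count of myoblast genes past the threshold was 0 of 8 in limma with Benjamini-Hochberg adjustment (2 at an unadjusted p under 0.05). It stayed at 0 under the other pseudocounts and filters, median-ratio scaling, the stage block and no variance trend, and ran from 0 to 3 with a library left out. It was 3 without knockout replicate 1 (Lbx1 and Chrna1 higher, Actc1 lower; Chrna1 entered the test through its knockout level alone) and 3 without knockout replicate 2 (Myod1, Myog and Actc1 higher), and 0 without either control. The background of tested genes that passed was 5.04% and 3.91% in those 2 knockout fits. Over all genes 167 passed; 533 did with somite stage as a block, 0 with no filter (2338 at an unadjusted p under 0.05) and 50 to 646 with a library left out. The fold changes of Msc, Myog and Actc1 changed sign without knockout replicate 1 or control replicate 2, and ran from -0.238 to 0.336, from -0.316 to 0.868 and from -0.82 to 1.23 with a library left out. Of 82 values under alternatives 71 kept their direction and side of the threshold and 6 changed sign. The other 5 kept their direction and came from fits with 1 knockout library, which are given by effect size only. The difference in balance was 0.253, ran from -0.107 to 0.612 with a library left out, and was -0.271 with a filter at a TPM of 5, where only Myf5 and Lbx1 remained. Pairing libraries by somite stage as a block changed no call among the myoblast genes; across 12809 genes, which are not independent replicates, the deviations of same-stage libraries had a Pearson correlation of 0.25 and a Spearman correlation of 0.364. Fits with a library left out leave stage and sex unbalanced and rest on 1 library in a genotype, whose own spread cannot be measured. Without knockout replicate 1 the SE was 0.266 for Actc1 and 0.268 for Chrna1. The control pairs of these 2 genes differed by 0.648 and 0.095 in log2(TPM + 1). The SEs of that fit thus hardly followed the spread of the single gene in the controls.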
